A study of Mus musculus with 2 samples.

Results

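The 45 genes described here encode proteins that copy chromosomal DNA or supply its building blocks, from the origin recognition complex to thymidylate synthase. The rule lists them by role and uses no measured value, although it was written with earlier results of these data in view. All 45 were found among the 21911 genes listed for these libraries, and all 45 reached the minimum set for a comparison, an average of 1 FPKM over both libraries, which 10267 genes met. FPKM counts sequenced fragments relative to the length of a transcript and to the size of the library. In bulk RNA, fewer cells that express a gene and less of its RNA per cell cannot be told apart.

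4T1 is a mouse mammary carcinoma line with a high capacity for lung metastasis. Cultures received PBS or potassium oxalate for 48 h, and polyadenylated RNA of 1 library per condition was sequenced to ask which transcripts differ under oxalate, the end product of glyoxylate oxidation. The oxalate dose is 20 microM in the sample label and in the study's methods, whereas the treatment protocol of the same samples gives 20 mM, so the dose cannot be stated with certainty. Both libraries come from the same line, and with 1 library per condition no difference has a replicate check and no test of the conditions was possible.

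The FPKM values summed to 567163 with PBS and 559026 with oxalate. Steps in the low FPKM values gave an estimated depth of 56.9 M reads with PBS and 36.4 M with oxalate. All 7 epithelial markers (such as Epcam, Krt8 and Krt18) were present, at 74.6 to 401.9 FPKM with PBS and 71.1 to 429.3 FPKM with oxalate. Of 7 leukocyte markers 5 were listed at 0 in both libraries, among them Ptprc, and the summed FPKM of the 7 was 12.7 and 12.3. The 4 endothelial markers summed to 0.08 and 0.11 FPKM. Of 6 fibroblast markers, Col1a1 was at 143.5 and 144.6 FPKM, whereas Dcn was at 0.31 and 0.33 and Lum was listed at 0 in both.

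DNA replication starts at origins, where the origin recognition complex, Cdc6 and Cdt1 load the ring-shaped MCM2-7 helicase onto DNA in G1 phase. In S phase, Cdc45 and the GINS complex join the ring to form the active helicase, DNA polymerase alpha-primase lays down primers, and DNA polymerases epsilon and delta extend the leading and lagging strands with the sliding clamp PCNA. The lagging strand is made as Okazaki fragments, whose primer-bearing flaps are cut by Fen1 and whose ends are joined by Lig1. Transcription of many of these genes is known to be under control of E2F factors, which are released from the retinoblastoma proteins at the G1/S transition.

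RefSeq promoter windows (GRCm38.p6, 250 bases before to 50 bases after a start site) were available for 37 of the 45 genes, and were searched on both strands for the E2F-type motifs TTTGGCGC, TTTCCCGC, TTTGCCGC and TTTCGCGC; matches may overlap. A match was present in 14 of the 37 genes (37.8%), against 5.21% of the 8158 compared genes that have a promoter window, and 2.60% of all 27025 genes with a window. By promoter window instead of gene, the shares were 31.1% of 45 windows and 2.26% of 32851. The 14 genes were Orc1, Orc3, Cdc6, Cdt1, Mcm3, Mcm5, Mcm6, Mcm7, Gins3, Pola1, Pold1, Pole2, Rfc3 and Lig1. In Cdt1, Mcm3, Pold1, Pole2 and Lig1 the matches lie after the start site. No window was at hand for Gmnn, Mcm4, Gins1, Gins2, Gins4, Prim2, Pole and Rfc2. The 160 bases directly before the start site are printed for 3 genes with matches and for Fen1, the gene that differed most between the libraries, 5′ to 3′ on the strand of the gene and with matches in capitals.
Mcm5 (chr8:75109349-75109508, plus strand): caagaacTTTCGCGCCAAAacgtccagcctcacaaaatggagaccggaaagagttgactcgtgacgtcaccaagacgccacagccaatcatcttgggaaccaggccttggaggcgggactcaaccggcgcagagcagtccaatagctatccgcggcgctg
Mcm6 (chr1:128359706-128359865, minus strand): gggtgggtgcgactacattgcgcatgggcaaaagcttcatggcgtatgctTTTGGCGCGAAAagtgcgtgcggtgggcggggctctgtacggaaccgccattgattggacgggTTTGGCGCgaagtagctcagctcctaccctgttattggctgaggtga
Pola1 (chrX:93632156-93632315, minus strand): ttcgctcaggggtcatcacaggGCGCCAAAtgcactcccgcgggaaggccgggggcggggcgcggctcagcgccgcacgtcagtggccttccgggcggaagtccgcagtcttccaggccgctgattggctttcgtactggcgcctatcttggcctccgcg
Fen1 (chr19:10204394-10204553, minus strand): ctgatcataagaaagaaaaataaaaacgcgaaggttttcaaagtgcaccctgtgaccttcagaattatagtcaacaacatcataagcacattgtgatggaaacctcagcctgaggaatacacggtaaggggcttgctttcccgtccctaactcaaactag
Mcm5 had 2 overlapping matches, beginning 153 and 149 bases before the start. In Mcm6 there were 3, beginning 110, 106 and 47 bases before it, of which the first 2 overlap. The match in Pola1, 138 bases before the start, lies on the opposite strand, as do the second match of Mcm5 and the second of Mcm6. Neither of the 2 RefSeq windows of Fen1 held these letters, and the bases between the windows were not searched. The stretch shown lies before the more upstream of its 2 starts, which is outside the Fen1 gene as GENCODE M21 draws it, in an intron of the neighbouring gene Tmem258; the other start lies inside the gene.

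The replication genes differed little between the libraries, with the exception of Fen1. Differences are given as log2((oxalate + 1)/(PBS + 1)), so a pseudocount of 1 FPKM is part of every value and differences of weakly expressed genes come out too small. Fen1, the flap endonuclease of Okazaki fragment processing, rose from 23.2 FPKM under PBS to 50.7 under oxalate (log2 fold change 1.096), and was the only one of the 45 genes past 1.2-fold in either direction. Over all genes compared, 4.75% were raised and 5.19% lowered at least 1.2-fold, 0.935% and 1.05% at least 1.5-fold, and 0.292% and 0.360% at least 2-fold. At least 1.1-fold, 2 of the 45 genes were raised and 4 lowered, against 14.9% and 15.7% of all genes compared. Of the 45 genes 25 were higher and 20 lower with oxalate, against 50.6% and 49.0% of all genes compared. When both libraries were rescaled to the same sum, which shifts all genes the same way, 5 genes changed sign and 30 of the 45 were higher, against 57.3% of all genes compared. The median log2 fold change was 0.016 over the 45 genes and 0.0031 over all genes compared. The median absolute difference was 0.050 for the replication genes, 0.087 for all genes compared and 0.078 for the 6159 genes within the same range of mean FPKM. The other 44 genes ran from -0.24 to 0.19. Within 1.1-fold lay 39 of the 45 (86.7%), against 69.5% of all genes compared and 75.1% of the 6159 genes of similar level.

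With PBS they ran from 10.2 FPKM for Pole2 to 187.1 FPKM for Pcna, with a median of 43.7 FPKM, whereas the median of all genes compared was 16.5 FPKM. With oxalate the range was 10.3 to 200.8 FPKM and the median 44.4 FPKM. The 45 genes together summed to 2482 FPKM with PBS and 2524 FPKM with oxalate, which is 0.438% and 0.451% of each library's total. Leaving out Fen1, which was decided after its values were seen, gave 2458 and 2473 FPKM.

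**Figure D1:**
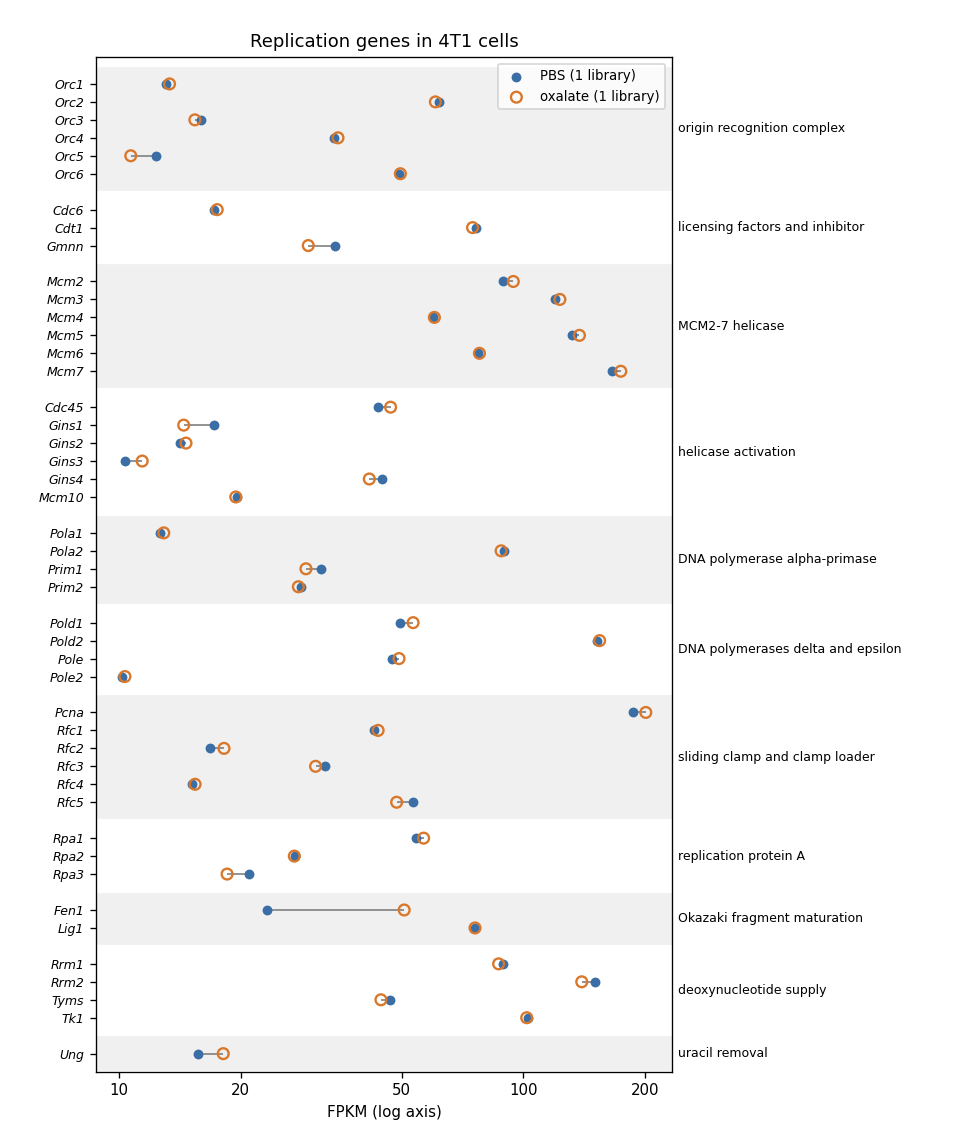
FPKM of each of the 45 replication genes (log axis) in the PBS library (filled points) and the oxalate library (open rings), 1 library each, grouped by role. The 2 symbols of a gene nearly coincide except for Fen1, which moved from 23.2 to 50.7 FPKM.

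The error that counting alone gives was estimated for each gene, as a lower bound on how small a difference could be seen. Variation between cultures and library preparations comes on top of it and was not measured. Reads were estimated from FPKM, the mean length of the coding transcripts and the FPKM worth of 1 read, and ran from 801 (Rpa3) to 21558 (Mcm5) with PBS and from 451 to 14408 with oxalate. An exact 95% interval (Clopper-Pearson) was then formed for the log2 ratio without a pseudocount, and it had a median width of 0.14, from 0.061 for Mcm5 to 0.34 for Rpa3. It lay above 0 for 12 genes, below 0 for 10 and held 0 for 23. No share of all genes compared stands beside these counts, so they do not show whether the set is unusual. These intervals compare the libraries and not the conditions. They cover counting error only, so a gene outside 0 may still differ by no more than replicate cultures would. They also take the FPKM scale of each library as given. Rescaling both libraries to the same sum would shift every bound upward, and the counts were not repeated with it. Intervals with a bound near 0, such as those of Rrm1 (-0.070 to -0.0059) and Rfc1 (-0.013 to 0.082), could then change side. For the 44 genes other than Fen1, no interval reached below -0.40 or above 0.32.

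**Figure D2:**
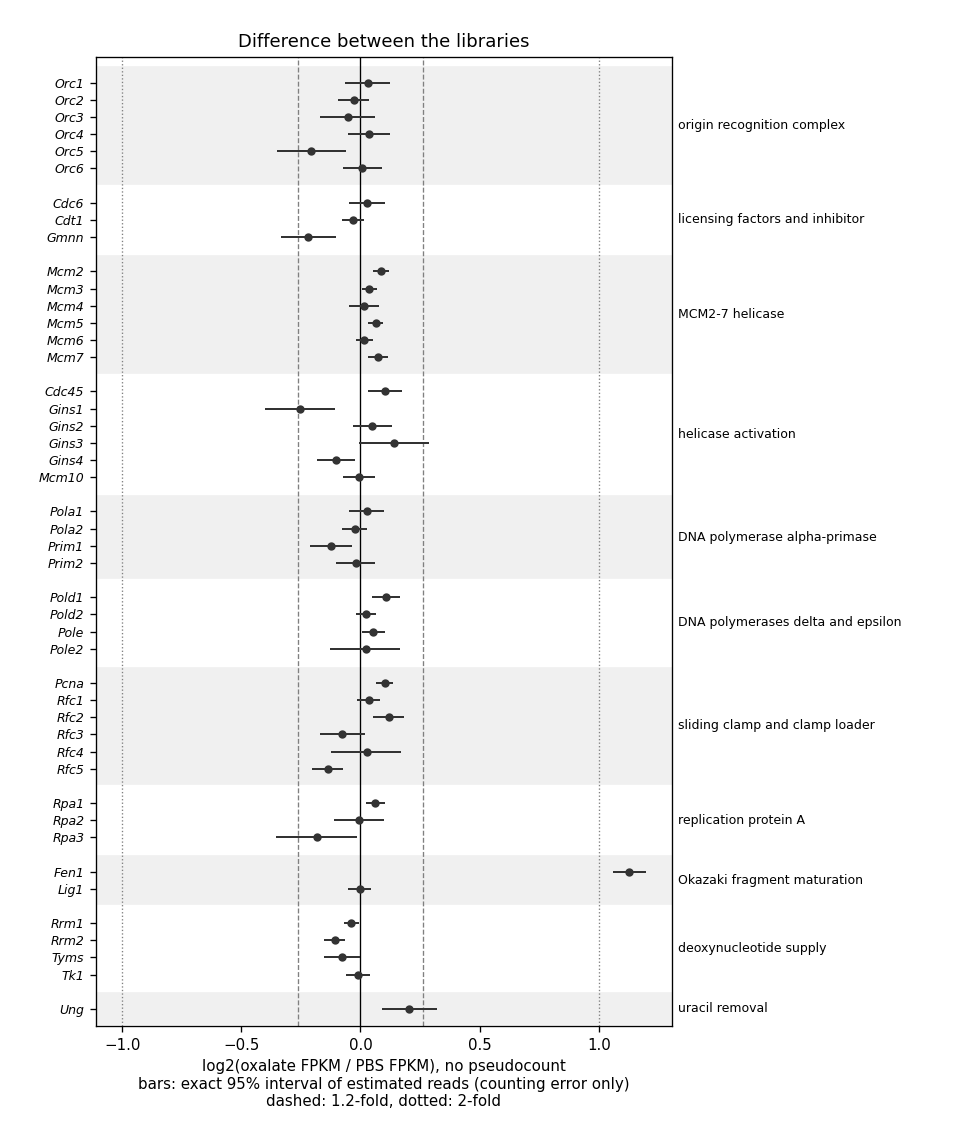
Log2 ratio of oxalate to PBS FPKM without a pseudocount for each gene, with the exact 95% counting interval from estimated reads (bars), 1.2-fold (dashed) and 2-fold (dotted). The interval of Fen1 runs from 1.06 to 1.198, and those of the other 44 genes stay between -0.40 and 0.32.

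Origins are marked by the 6 subunits of the origin recognition complex. Their mRNAs differed more among themselves than between the libraries. Orc2 was highest, at 61.8 FPKM with PBS and 60.6 with oxalate (log2 fold change -0.029, percentile 40.1 of all genes compared, interval -0.093 to 0.035). Orc6 followed at 49.4 and 49.6 FPKM and Orc4 at 33.9 and 34.8 FPKM. Lower still were Orc3, at 16.0 and 15.4 FPKM, and Orc1 at 13.1 and 13.3 FPKM. The lowest was Orc5 (chromosome 5, 22486485 to 22550429), at 12.3 and 10.7 FPKM, with a log2 fold change of -0.19, at percentile 9.51, and an interval from -0.35 to -0.062. Of the 6 subunits 3 were higher and 3 lower with oxalate, with a median of -0.010.

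The factors that load the helicase were at different levels. Cdt1, which brings MCM2-7 to the origin, was at 76.5 FPKM in PBS and 74.9 in oxalate. Cdc6, the ATPase that works beside it, was at 17.2 and 17.5 FPKM. Gmnn (chromosome 13, 24751845 to 24761923), which encodes geminin, the inhibitor of Cdt1 that prevents a second licensing, was at 34.2 and 29.4 FPKM. Its log2 fold change of -0.21 lay at percentile 7.99 and its interval ran from -0.34 to -0.10. The ratio of Cdt1 to Gmnn was thus 2.24 with PBS and 2.55 with oxalate. None of these 3 genes passed 1.2-fold.

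All 6 MCM2-7 genes were slightly higher with oxalate, with a median log2 fold change of 0.050 and a range of 0.015 to 0.084. None reached 1.1-fold, and 50.6% of all genes compared were higher too. Mcm7 was the highest, at 165.6 FPKM with PBS and 174.2 with oxalate (0.072, percentile 71.1, interval 0.030 to 0.12). Mcm5 was at 131.7 and 137.6 FPKM, Mcm3 at 120.01 and 123.1 FPKM, and Mcm2 at 89.0 and 94.4 FPKM. Mcm6 was at 77.0 and 77.9 FPKM. Mcm4, the lowest, was at 59.6 and 60.2 FPKM (0.015, percentile 53.6, interval -0.048 to 0.077). The rings contain each subunit once, and the mRNA of the highest subunit exceeded that of the lowest 2.78 times with PBS and 2.89 times with oxalate. The intervals of Mcm2, Mcm3, Mcm5 and Mcm7 lay above 0 and those of Mcm4 and Mcm6 held 0.

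Helicase activation drew on genes of lower level. Cdc45, a partner of the ring, was at 43.7 FPKM in PBS and 46.9 in oxalate. Mcm10, which helps to activate the ring, was at 19.5 and 19.4 FPKM. Among the GINS genes, Gins4 was highest, at 44.7 and 41.6 FPKM (-0.10, percentile 21.5, interval -0.18 to -0.025). Gins1 (chromosome 2, 150905400 to 150931280) had the most negative log2 fold change of the 45 genes, -0.24, with 17.2 FPKM under PBS and 14.5 under oxalate, at percentile 6.34 and with an interval from -0.40 to -0.11. Gins2 was at 14.1 and 14.6 FPKM. Gins3 (chromosome 8, 95633453 to 95645060) was the lowest, at 10.3 and 11.4 FPKM, with the third highest log2 fold change of the 45 genes, 0.13, at percentile 84.0. Its interval of -0.0052 to 0.29 held 0, but with reads estimated from its longest coding transcript the interval was 0.026 to 0.26. The GINS genes therefore lay on both sides of 0 although their proteins form 1 complex, and Gins1 and Gins2 exchanged ranks between the libraries.

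None of the 4 genes of DNA polymerase alpha-primase passed 1.2-fold. Pola2, the regulatory subunit of DNA polymerase alpha, was at 89.6 FPKM in PBS and 88.1 in oxalate (-0.024, percentile 41.4, interval -0.076 to 0.027). Pola1, the catalytic subunit, was the lowest of its complex, at 12.7 and 12.9 FPKM (0.025, percentile 56.7, interval -0.046 to 0.10). Prim1 and Prim2, which encode the primase that starts each fragment with RNA, were at 31.6 and 28.1 FPKM with PBS and at 29.0 and 27.8 FPKM with oxalate. The interval of Prim1 (-0.21 to -0.036) lay below 0 and that of Prim2 (-0.10 to 0.061) held it.

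All 4 listed genes of DNA polymerases delta and epsilon were slightly higher with oxalate, with a median log2 fold change of 0.038. None reached 1.1-fold, and of all genes compared 50.6% were higher. Of the subunits outside the 45 genes, Pold3 was lower (-0.14), and Pold4 (0.0042), Pole3 (0.054) and Pole4 (0.0087) were higher. Pold1, the catalytic subunit of polymerase delta, was at 49.5 FPKM in PBS and 53.4 in oxalate (0.11, percentile 79.4, interval 0.048 to 0.17). Its partner Pold2 was 3.07 times higher with PBS and 2.89 times with oxalate, at 151.9 and 154.3 FPKM (0.023, percentile 56.1, interval -0.020 to 0.067). Pole, the catalytic subunit of polymerase epsilon, was at 47.4 and 49.3 FPKM (0.054, percentile 66.0, interval 0.0059 to 0.10). Pole2 was the lowest of all 45 genes in the PBS library, at 10.2 FPKM, and was at 10.3 FPKM with oxalate (0.021, percentile 55.3, interval -0.13 to 0.17).

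Pcna, which encodes the sliding clamp, was the highest of the 45 genes, at 187.1 FPKM with PBS and 200.8 with oxalate (log2 fold change 0.10, interval 0.067 to 0.14). The clamp is opened and closed around DNA by replication factor C, whose 5 subunit genes were lower. Rfc5 led them at 53.5 and 48.6 FPKM (-0.13, percentile 16.0, interval -0.20 to -0.074), and Rfc1, the large subunit, was at 42.7 and 43.7 FPKM. Rfc3 was at 32.3 and 30.6 FPKM and Rfc2 at 16.8 and 18.2 FPKM. The lowest was Rfc4, at 15.2 and 15.4 FPKM (0.024, percentile 56.3, interval -0.12 to 0.17). Rfc2 was thus slightly higher and Rfc5 slightly lower with oxalate, both within 1.2-fold. Pcna, Rfc5, Mcm7, Cdc6 and Rrm2 each have a near-identical processed pseudogene, so their values are less certain.

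Replication protein A covers single-stranded DNA at the fork as a trimer. Rpa1, the large subunit, was at 54.3 FPKM in PBS and 56.7 in oxalate (0.061, percentile 68.2, interval 0.022 to 0.10). Rpa2 was at 27.2 and 27.1 FPKM. Rpa3, the small subunit, was at 21.01 and 18.5 FPKM (-0.17, percentile 10.8, interval -0.35 to -0.016), with the fewest estimated reads of all 45 genes.

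Across the 9 complexes with at least 2 listed subunits, the mRNAs were not at equal levels in either library, although the proteins of these complexes join in fixed proportions. Among the listed subunits, the highest exceeded the lowest by a median of 3.53 times with PBS and 3.15 times with oxalate. DNA polymerase alpha-primase had the widest spread (7.08 and 6.83 times, Pola2 over Pola1), followed by the origin recognition complex (5.01 and 5.67 times) and polymerase epsilon (4.66 and 4.76 times). For GINS the ratio was 4.32 and 3.64, for replication factor C 3.53 and 3.15, for polymerase delta 3.07 and 2.89 and for replication protein A 2.58 and 3.06. Ribonucleotide reductase had the narrowest spread, at 1.69 and 1.61 times. Polymerases delta and epsilon have further subunits outside this gene set, so their ratios and ranks cover only part of each complex. Pole3 was at 65.3 and 67.8 FPKM, above Pole, and Pole4 at 18.8 and 18.9 FPKM. Pold3 was at 31.7 and 28.6 FPKM, below Pold1, and Pold4 at 60.4 and 60.6 FPKM. Both spreads would be wider with them, and the median was not computed that way. The order of the subunits was the same in both libraries for 8 of the 9 complexes. As a percentage of the complex mean in its own library, 26 of 34 subunits shifted by at most 5 points and none by more than 11.5 points (Rfc5). FPKM divides by a transcript length that the authors' annotation sets, so ratios between genes carry that choice. For genes with several coding transcripts the length may also have differed between the libraries, which was not tested.

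**Figure D3:**
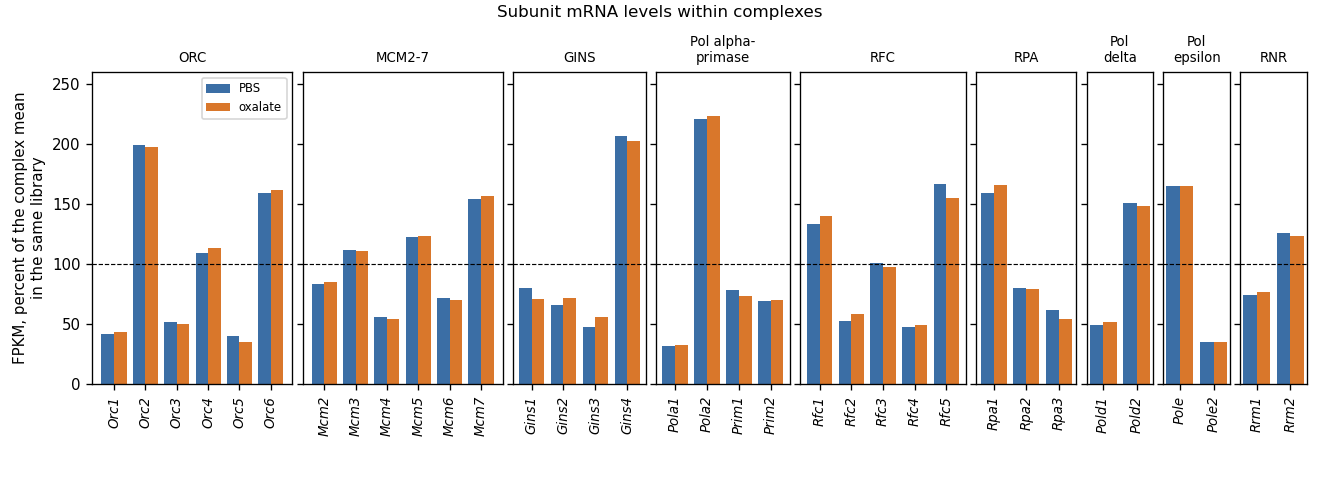
FPKM of each listed subunit as a percentage of the mean of the listed subunits of its complex in the same library (dashed line at 100), for PBS and oxalate, 1 library each. The profile of each complex is nearly the same in both libraries, with 26 of 34 subunits shifted by at most 5 points.

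Fen1 stood apart from every other gene of the set (ENSMUSG00000024742, chromosome 19, 10199132 to 10204169, minus strand, GENCODE M21 on GRCm38). It was at 23.2 FPKM under PBS and 50.7 FPKM under oxalate, 2.19 times higher. An estimated 2956 reads with PBS and 4135 with oxalate gave an interval of 1.06 to 1.198 for the log2 ratio. Its log2 fold change of 1.096 was at percentile 99.8 and ranked 21st among the 10267 genes compared, of which 30 were raised at least 2-fold. The next gene of the set, Ung, was at 0.19. Lig1, the ligase that acts right after Fen1 on the same fragments, was at 76.1 FPKM in the PBS library and 75.9 FPKM in the oxalate library (-0.0036). The ratio of Fen1 to Lig1 was therefore 0.305 with PBS and 0.668 with oxalate, and that of Pcna, which holds Fen1 at the fork, to Fen1 was 8.07 and 3.96.

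None of the listed neighbours of Fen1 was past 1.2-fold. Fads1, a fatty acid desaturase gene on one side, was at 17.9 FPKM in PBS and 17.8 in oxalate. Tmem258, which begins head to head with Fen1 on the opposite strand, was at 44.5 and 39.3 FPKM, and Dagla was at 14.8 and 15.1 FPKM. Exons of Tmem258 share 130 bases with those of Fen1, and exons of the antisense gene Gm10143, for which the table lists no value, share 1909 bases. The library preparation is not stated to mark strand, so reads of Fen1 and of these genes cannot be told apart where they overlap. Fen1 has 4 coding transcripts, of 2100 to 2373 bases, so their lengths differ by at most 1.13 times. Of the 30 genes raised at least 2-fold, 1 has a single coding transcript, against 2613 of the 10267 genes compared. The part of overlapping genes and of transcript assignment in the Fen1 value was not tested.

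**Figure D4:**
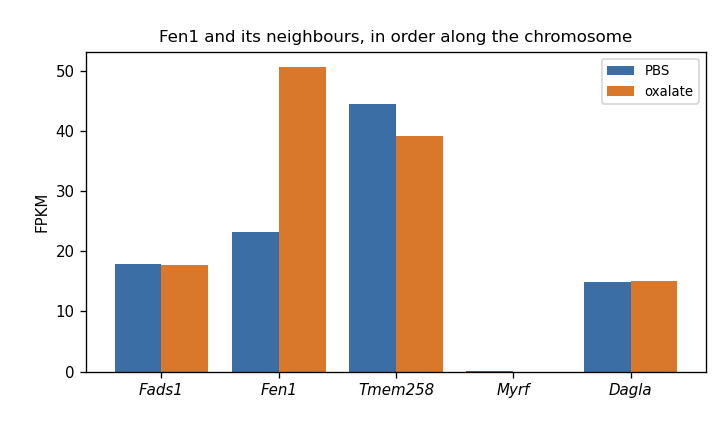
FPKM of Fen1 and the listed genes next to it on chromosome 19, in the PBS and the oxalate library, 1 library each. Fen1 goes from 23.2 to 50.7 FPKM, while Fads1, Tmem258 and Dagla are all within 1.2-fold and Myrf is at or near 0.

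All 4 genes of deoxynucleotide supply were slightly lower with oxalate, with a median log2 fold change of -0.057. None reached 1.1-fold, and 49.0% of all genes compared were lower. Rrm2, the S-phase subunit of ribonucleotide reductase, which makes deoxynucleotides from ribonucleotides, was at 150.2 FPKM in PBS and 139.4 in oxalate (-0.11, percentile 20.6, interval -0.15 to -0.063). Rrm1, its large subunit, was at 89.2 and 86.8 FPKM (-0.038, percentile 37.5, interval -0.070 to -0.0059). Tyms, the thymidylate synthase, was at 46.9 and 44.4 FPKM (interval -0.15 to -0.00099), and Tk1, the S-phase thymidine kinase, at 102.6 and 101.9 FPKM. The longest coding transcript of Tyms shares near-identical stretches with other genes, so its value is less certain. When both libraries were rescaled to the same sum, 3 of these 4 genes were lower. That scaling moves the median of all genes compared from 0.0031 to 0.023.

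Ung (chromosome 5, 114130386 to 114139323) encodes the glycosylase that removes uracil from DNA, the base that enters when dUTP replaces dTTP. It was at 15.7 FPKM in PBS and 18.1 in oxalate, the second highest log2 fold change of the 45 genes at 0.19, percentile 91.2, with an interval from 0.089 to 0.32. This difference is below 1.2-fold.

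The small differences were correlated with GC content and length of the transcripts. Across the 45 genes the log2 fold change had a Spearman correlation of 0.37 with GC content and 0.43 with mean transcript length. Across 10261 genes compared these were 0.20 and 0.15, and across the 6156 of them within the same range of mean FPKM 0.25 and 0.17. These correlations are across genes of the same 2 libraries, which are not independent replicates. Leaving out Fen1, the 14 genes with the shortest transcripts (670 to 1440 bases) had a median of -0.042. Of these, 9 were lower (among them Rpa3, Gmnn and Gins1) and 5 higher (among them Mcm7 and Orc4). Length is the mean of the coding transcripts, of which the longest has 2962 bases for Mcm7 and 4066 for Orc4. The 14 with the longest (2879 to 5346 bases) had a median of 0.035. Of these, 12 were higher (among them Mcm2, Rfc2 and Rpa1) and 2 lower (Rrm1 and Mcm10), against 50.6% and 49.0% of all genes compared. All genes compared in the same 2 length ranges had medians of -0.021 and 0.019. By GC content, the 14 lowest (38.6% to 46.3%) had a median of -0.0069, with 7 higher and 7 lower. The 14 highest (50.9% to 61.2%) had a median of 0.030, with 8 higher and 6 lower. All genes compared in these 2 GC ranges had medians of -0.042 and 0.031. The part of length and GC content in the small differences was not tested.

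**Figure D5:**
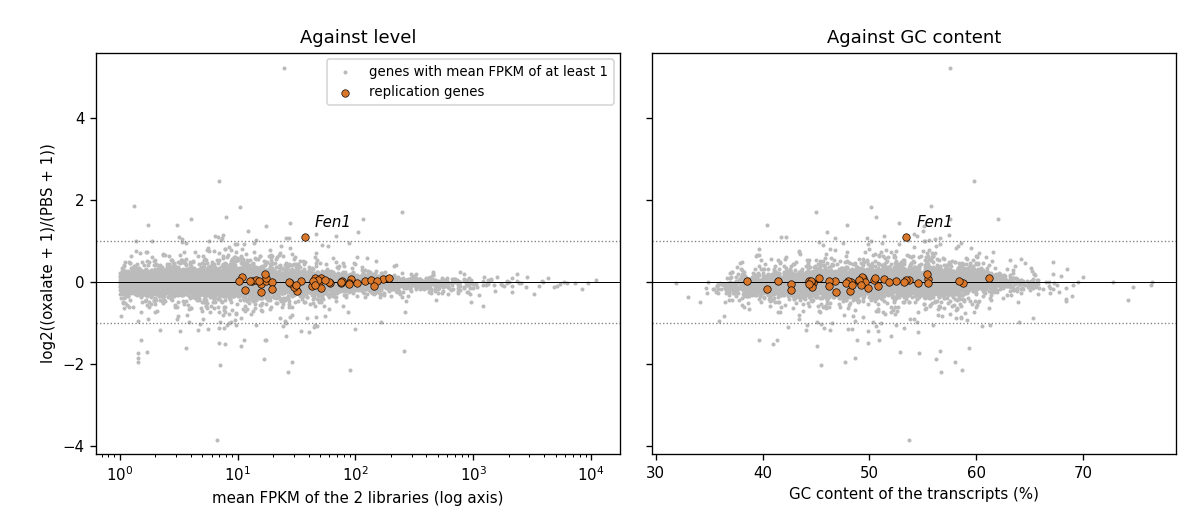
Log2 fold change of the 45 replication genes (orange) and of all 10267 genes compared (grey) against mean FPKM (left, log axis) and GC content of the transcripts (right), with 2-fold marked by dotted lines. All replication genes lie in the central band, between -0.24 and 0.19, except Fen1 at 1.096.

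Genes with and without an E2F-type motif in their window both lay close to 0, apart from Fen1. The 14 with a match ran from -0.074 to 0.13, with a median of 0.026 and 10 higher with oxalate. The 23 without a match ran from -0.19 to 1.096, with a median of -0.0046 and 11 higher. Of all genes compared, 50.6% were higher. The values of other genes with such a motif were not set beside these, and a link between motif and difference was not tested.

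The wider replication and nucleotide pathway was read from 4 further lists of 103 genes, of which 101 entered the comparison. Among them, 1 was raised and 5 were lowered at least 1.2-fold, against 4.75% and 5.19% of all genes compared. None was past 1.5-fold with the pseudocount of 1; without it the oxalate level of Rb1 was 0.566 times that with PBS, which is past 1.5-fold. Their median log2 fold change was -0.020. Among 27 other fork and origin proteins the median was 0.0027, and 1 was lowered at least 1.2-fold: Rnaseh2c, a subunit of the nuclease that removes ribonucleotides from DNA, went from 54.1 to 40.2 FPKM (-0.42). The highest log2 fold change in this list was that of Mcm9, a helicase of repair, at 3.38 and 4.05 FPKM (0.21). The 14 genes of clamp loading and chromatin assembly had a median of 0.017, from Asf1a (16.9 and 14.04 FPKM, -0.25), a histone chaperone, to Uhrf1 (82.1 and 87.0 FPKM, 0.084), a partner of the maintenance DNA methyltransferase.

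Of 33 other nucleotide enzymes 22 were lower and 11 higher, against 49.0% and 50.6% of all genes compared, with a median of -0.059. Shmt2, the mitochondrial serine hydroxymethyltransferase that feeds the folate cycle, was raised from 184.2 to 240.2 FPKM (0.38), the only one past 1.2-fold. The most negative log2 fold change was that of Adsl, an enzyme of purine synthesis, at 68.3 and 57.2 FPKM (-0.25). None of the 33 was lowered 1.2-fold.

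Among the G1/S regulators, 27 of 29 were compared, and 4 were lowered at least 1.2-fold while none was raised, against 5.19% and 4.75% of all genes compared. Rb1, the retinoblastoma protein gene, was at 1.96 FPKM in PBS and 1.11 in oxalate (-0.49). E2f3, an activating E2F factor, went from 9.15 to 6.47 FPKM (-0.44). Cdkn1b and Cdkn1a, which encode the CDK inhibitors p27 and p21, went from 14.7 to 10.9 FPKM (-0.40) and from 13.3 to 10.7 FPKM (-0.29). Rbl2, a relative of Rb1, had the highest log2 fold change, at 6.93 and 8.16 FPKM (0.21). The median of this list was 0.0035, near that of all genes compared.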

How the data were processed

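RNA of 4T1 cells was sequenced in 2 libraries, 1 with PBS and 1 with potassium oxalate. The authors deposited 1 FPKM value per gene and library, rounded to 2 decimals; the submitters' processing notes name Bowtie2 2.2.8 and TopHat2 2.1.1, and the quantification tool, genome build and annotation are not given in the sources used here. Symbols, coordinates and transcript lengths came from GENCODE M21 (GRCm38), in which 21848 of 21911 identifiers were found.

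From the FPKM values, log2((oxalate + 1)/(PBS + 1)) was computed over genes whose 2 values averaged at least 1. Depth was estimated from genes with 1 transcript of up to 900 bases, whose values, multiplied by length in kb, were multiples of 0.0176 (PBS) and 0.0275 (oxalate), with 97.2% of 107 and 100% of 110 values of up to 10 reads within 0.2 of a whole read. Reads so estimated summed to 56.1 M and 35.9 M over all genes. They are estimates, so no count test was run.

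The members, lists and tests were chosen with earlier results of these data known. All 45 members are named; of the other lists, those past 1.5-fold and the largest rise and fall of each were to be named, and E2f3, Cdkn1a and Cdkn1b were added after their values were seen. Of the members, 5 have a processed pseudogene with at least 95% identity over 300 bases (blastn 2.17.0): Cdc6, Mcm7, Pcna, Rfc5 and Rrm2, whose values are therefore less certain, and 17 share exonic bases with another gene. Tyms has no such pseudogene but shares stretches of 330 to 361 bases, at 95.0% to 97.7% identity, with other genes such as Map3k2 and Reep3. Alternatives were other pseudocounts, filters, scalings, folds and gene subsets. The scripts were tested on simulated data. Calculations used pandas 2.3.3 and numpy 2.4.6 under Python 3.11.15, intervals scipy 1.17.1, and plots matplotlib 3.10.9.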

Additional observations from a re-analysis of the deposited data

How the results depend on the processing

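No paired analysis was possible because only 1 library was made per condition, and for the same reason no replicate could be left out. With pseudocounts of 0.1 or 0.001, a mean of at least 5, no filter or rescaled libraries, 1 member was raised and 0 lowered at least 1.2-fold. Fen1 has several coding transcripts, so with genes of 1 coding transcript alone (15 members) 0 were raised 1.2-fold and 0 raised 2-fold. At 1.1-fold 2 members were raised and 4 lowered. The median of the members ran from -0.010, with the 15 members of 1 coding transcript alone, to 0.036, with rescaled libraries. With all 45 genes kept, the lowest was 0.0125, after centring on the median of all genes compared. Medians by role counted as moved when they shifted by more than 0.069, 0.5 times the median width of the counting intervals: with 1 coding transcript alone, helicase activation became -0.10, clamp and loader 0.10 and replication protein A -0.17, and without same-strand overlaps replication protein A became -0.090, because fewer genes remain. The other 81 of 85 values by role did not move, but the cut of 0.069 is larger than most of the role medians themselves. By sign, 79 of the 85 values kept the direction of the main value. The origin recognition complex, for example, went from -0.010 to 0.028 with 1 coding transcript alone. Of the other lists, 8 genes were raised and 19 lowered at 1.1-fold, 0 and 0 at 1.5-fold, and 0 and 1 with 1 coding transcript alone (25 genes). Taken over the median subunit, the spread within complexes was 1.66 times with PBS and 1.65 with oxalate. Under another pseudocount or centring, 0 of 135 values of single members moved by more than 0.5 times the width of their own counting interval. Centring shifts every gene by only 0.0031, and a smaller pseudocount hardly moves genes at these levels, so this says little about robustness. Rescaling to the same sum was not part of this check. With reads estimated from the longest coding transcript, 13 counting intervals lay above 0 and 10 below, against 12 and 10 with the mean length. Depth limits the members with few reads most: the counting interval of Rpa3, with 451 reads under oxalate, is 0.34 wide.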
